A study of Oncorhynchus mykiss with 27 samples.

Results

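The combined action of Fsh and trilostane on testicular gene expression was followed in cultured pieces (explants) of rainbow trout testis. The comparison set 6 arrays of explants that received both substances (Fsh+Tri) against 6 arrays of explants that received neither (Ctrl), so that 12 of the 27 arrays of the series were members by their treatment label. Of 9024 cDNA clones on the arrays, 4565 were expressed well enough to be tested. Explants came from an all-male population of fish with testes small for their body weight, whose age is not given in the sources used here. They were cultured for 96 h with the medium renewed midway. Fsh+Tri explants received purified pituitary salmonid Fsh at 500 ng/mL and trilostane at 10 µg/mL, with trilostane added ahead of Fsh. The other cultured groups, used here to split the combination into its parts, received Fsh alone at 500 ng/mL (Fsh) or trilostane alone at 10 µg/mL (Tri), on 6 arrays each. The 3 arrays of tissue taken before culture were not used here.

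Fsh is the pituitary hormone that drives the growth of the testis and, through receptors on somatic cells around the germ cells, sets how Sertoli cells nurse them. In fish it also stimulates the synthesis of androgens. Trilostane blocks 3 beta-hydroxysteroid dehydrogenase, the enzyme that turns early steroid precursors into the precursors of androgens and progestins. Explants with both substances were therefore exposed to Fsh while this step of steroid synthesis was inhibited. The comparison with Ctrl gives the outcome of both substances together. The single treatments are set beside it to describe clones in which they add up or cancel, by the rules given below.

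Each array is a nylon membrane spotted with cDNA and hybridized with radiolabelled cDNA of the explants, and the values used are the authors' normalized log2 expression values. All differences are log2 differences between group means, where 1 is a doubling. Adjusted p-values are Benjamini-Hochberg values from limma over the 4565 clones. The 6 wells of a group were filled from 1 pool of chopped testes, so that p-values measure the spread between wells and not between fish. In whole explants, more transcript per cell and more cells of the type that makes it cannot be told apart. Names were available only for clones that the study had picked on these same arrays for their response to Fsh, and for the reference gene *rps15*. A named clone is thus more likely than others to differ in any comparison with Fsh, and counts of named clones are not independent evidence of a direction.

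The arrays were not evenly matched. The labels give all 6 Ctrl arrays as stage I-II of testis maturation, against 2 of 6 Fsh+Tri arrays, and give the other 4 as stage III, although the methods state that every well held explants of both stages. No Ctrl array was labelled stage III, so that for those 4 arrays the treatment and the stage label cannot be told apart. By the paper, stage I-II testes hold mostly early germ cells (A-spermatogonia), and stage III testes many later B-spermatogonia and some cells in meiosis. Ctrl replicate 4 stood apart from its group, with a median correlation of 0.865 with the other Ctrl arrays, whereas the other Ctrl arrays ranged from 0.917 to 0.951 and the Fsh+Tri arrays from 0.946 to 0.960. Genes of the testis were among the clones measured. The Sertoli cell genes *amh*, *dmrt1*, *inha* and *cldn11* and the Leydig cell gene *hsd3b1* each had a mean log2 value of 6.42 or more in Ctrl and in Fsh+Tri. That value is the median over all clones with enough values. Only clones that reached it in at least 1 treatment were tested, so that these levels do not test the tissue. The mean log2 value over the 4 Sertoli cell genes ran from 7.49 to 8.93 on the Ctrl arrays, with a median of 8.74. The lowest of these, 7.49, is that of Ctrl replicate 4. On the Fsh+Tri arrays the mean over these genes ran from 8.80 to 8.92, with a median of 8.86.

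With Fsh and trilostane together, 88 of the 4565 clones differed from Ctrl at an adjusted p under 0.05, which is 1.93% of the clones tested. Of these, 74 were higher with the combination (1.62%) and 14 were lower (0.307%), while 595 clones had an unadjusted p under 0.05. A change of at least 1.5-fold was seen in 72 of the 88. Among the called clones, 30 have a name, 24 of them higher and 6 lower. Of all named clones, *rps15* apart, 78 had a higher mean with the combination than in Ctrl and 24 a lower one. Calls in each direction were thus more frequent among named clones than the 1.62% and 0.307% of all clones tested. The gene lists below consist mostly of named clones, and whether any list differs from the other named clones was not tested. The strongest named rises were those of *pgd*, *tfpi2*, *hgfa*, *sl* and *tac1*, each over 2-fold, and the strongest fall was that of the anion transporter *slc26a4*, 3.15-fold. The 6 arrays of one group lay apart from the 6 of the other for 43 of the 74 clones called higher and 8 of the 14 called lower. Over all clones tested, every Fsh+Tri array lay above every Ctrl array for 1.64% and below for 0.438%. The median difference over all clones tested was -0.01, and the reference gene *rps15* differed by -0.02 (95% interval -0.31 to 0.27). At the threshold, *aplp1* lay just inside (0.60, adjusted p = 0.0470) and *ccng1* just outside (0.58, adjusted p = 0.0551).

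On the arrays labelled stage I-II alone, 6 Ctrl against 2 Fsh+Tri, 8 clones were called higher and 1 lower, and 258 had an unadjusted p under 0.05. The 9 were among the 88, with *pgd*, *tfpi2*, *sl*, *rhag* and *slc26a4* as the named ones. The median size of the difference over the 88 clones was 0.70 there, against 0.75 on all arrays. The 88 were chosen on values that include these same arrays, which by itself favours a similar size. With the stage label as a covariate, 51 were higher and 18 lower, of which 55 were among the 88. When Ctrl replicate 4 was left out, there were 64 higher and 27 lower clones, 66 of them among the 88. The lowest counts came without Fsh+Tri replicate 6, with 54 higher and 5 lower.

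**Figure D1:**
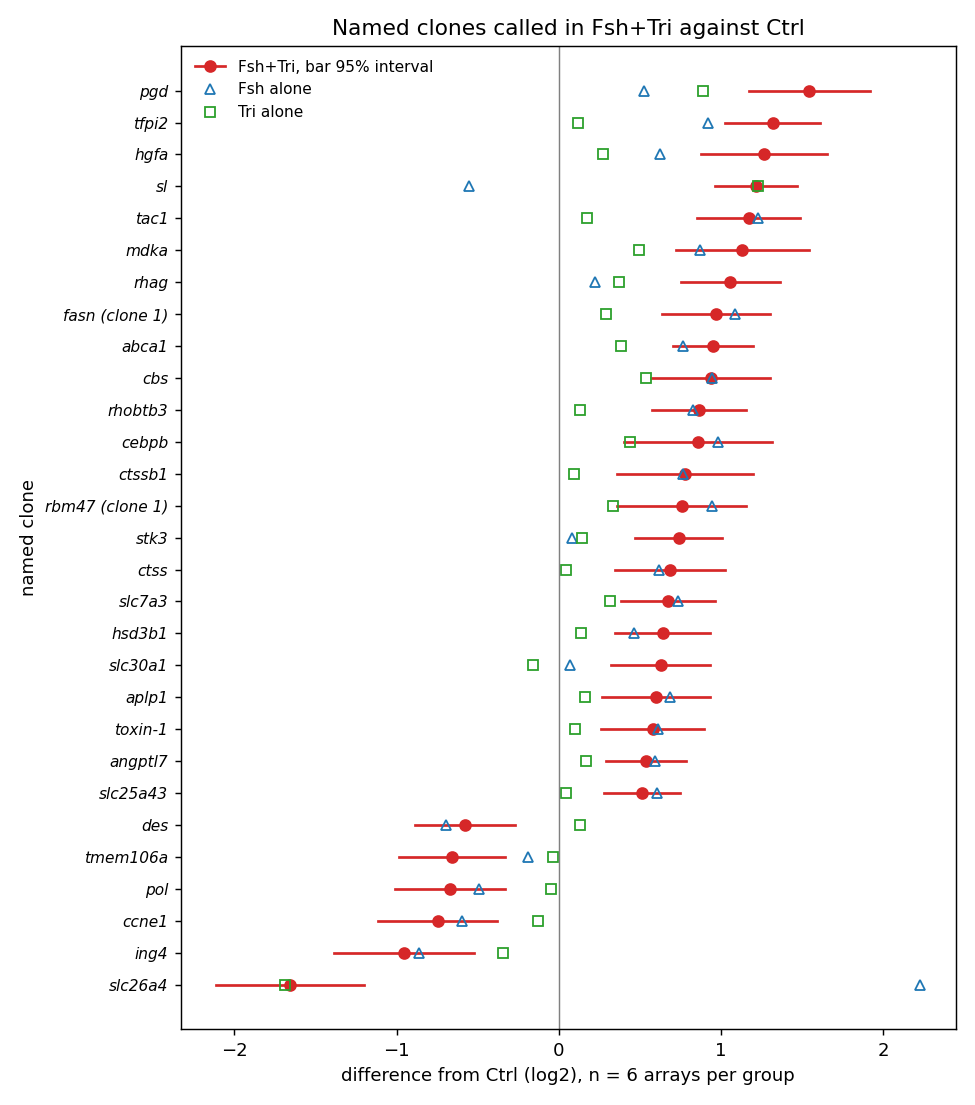
Log2 difference from Ctrl of named clones called with the combination (n = 6 arrays per group), with filled points and 95% intervals for Fsh+Tri, triangles for Fsh alone and squares for Tri alone. The Fsh+Tri point of *sl* and of *slc26a4* lies on that of Tri alone, and that of *cbs* on that of Fsh alone.

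Enzymes of lipid and steroid synthesis rose in part. Risers in the list of steroid, cholesterol and isoprenoid genes, none of which fell, included *abca1*, which exports cholesterol from cells (0.95, SE 0.12, adjusted p = 5.09e-06), and *hsd3b1*, whose product is the enzyme that trilostane inhibits. Values of *hsd3b1* were 6.49, 7.06 and 7.18 at the lowest, the median and the highest Ctrl array and 7.28, 7.62 and 7.78 with the combination. Every Fsh+Tri array was thus above every Ctrl array. The difference was 0.64 (SE 0.14, adjusted p = 0.0106), beside 0.46 with Fsh alone (adjusted p = 0.0903) and 0.14 with trilostane alone (adjusted p = 0.818). With the stage label in the fit, the adjusted p of *hsd3b1* was 0.0715. *fdps*, an enzyme of isoprenoid synthesis, differed by 0.42 (95% interval 0.09 to 0.75, adjusted p = 0.242) and *cyp46a1*, a cholesterol hydroxylase, by 0.05 (adjusted p = 0.946).

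Among 6 clones of fatty acid, glycerolipid and phospholipid synthesis, only *fasn* passed, on 1 of its 2 clones, and the median difference was 0.36. *fasn* makes palmitate. Its clone 1 had values of 7.56, 7.84 and 8.20 (lowest, median and highest) in Ctrl and 8.43, 8.90 and 8.998 in Fsh+Tri. The groups did not overlap, and the difference of 0.97 (SE 0.16, adjusted p = 0.000408) stood beside 1.08 with Fsh alone. Clone 2 of *fasn* differed by 0.38 (95% interval 0.03 to 0.72, adjusted p = 0.322). *etnk1*, a kinase of phosphatidylethanolamine synthesis, differed by 0.61 (adjusted p = 0.107), and *acot11*, a thioesterase, by 0.35 (adjusted p = 0.359).

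The largest named rise was in carbohydrate metabolism. *pgd* encodes the dehydrogenase of the pentose phosphate pathway that yields NADPH. Its Ctrl values were 8.73, 9.62 and 9.88 at the lowest, the median and the highest array, and its Fsh+Tri values 10.87, 11.03 and 11.43. The lowest Ctrl value is that of Ctrl replicate 4. All Fsh+Tri arrays lay above all Ctrl arrays, and the difference was 1.55 (SE 0.18, 2.92-fold, adjusted p = 1.36e-06), or 1.39 without Ctrl replicate 4. The other members of this list of 4 were not called. They were *hk1*, the first enzyme of glycolysis, at 0.49 (adjusted p = 0.0646), the glycolytic enzyme *gapdhs* at 0.33 and the nucleotide kinase *ndpkz3* at 0.11. Of 3 genes of sulfur amino acid and polyamine metabolism, *cbs*, the first enzyme of the route from homocysteine to cysteine, rose by 0.94 (SE 0.18, adjusted p = 0.00211). *odc1*, which starts polyamine synthesis, differed by 0.59 (adjusted p = 0.0631), and *cth*, which completes the route to cysteine, by 0.35 (adjusted p = 0.364).

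Transporters moved in both directions. Of 7 members, 4 rose and 1 fell. *rhag*, an ammonia channel of the red blood cell membrane, had values of 6.15, 6.27 and 6.53 in Ctrl (lowest, median and highest) and 6.93, 7.27 and 7.88 in Fsh+Tri. No value of either group reached the other, and the difference was 1.06 (SE 0.15, adjusted p = 2.81e-05). *slc7a3*, which carries cationic amino acids, rose by 0.67 (SE 0.14, adjusted p = 0.00613), the zinc exporter *slc30a1* by 0.63 (SE 0.15, adjusted p = 0.0175) and the mitochondrial carrier *slc25a43* by 0.51 (SE 0.12, adjusted p = 0.0113). A second annotation in the study's material assigns the clone of *slc25a43* to SLC25A5. The call of *slc30a1* was lost without Fsh+Tri replicate 6, and that of *slc7a3* with the stage label as a covariate (adjusted p = 0.0828). The anion exchanger *slc26a4* fell. Its values were 6.83, 7.04 and 8.11 in Ctrl and 5.12, 5.58 and 6.16 with the combination, so that all treated arrays lay below all Ctrl arrays. The difference was -1.66 (SE 0.22, adjusted p = 1.36e-05), and -1.85 on the arrays labelled stage I-II.

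Of 9 proteases and protease inhibitors, 4 rose and none fell, with a median difference of 0.34. The inhibitor of serine proteases *tfpi2* had 6.08, 6.34 and 6.58 in Ctrl and 7.35, 7.69 and 8.002 in Fsh+Tri (lowest, median and highest). The gap between the groups was wider than either group's range, and the difference was 1.32 (SE 0.14, 2.50-fold, adjusted p = 2.35e-07). *hgfa*, the protease that activates hepatocyte growth factor, stood at 7.12, 8.17 and 8.42 in Ctrl and at 9.08, 9.39 and 9.44 with the combination. Its lowest Ctrl value is that of Ctrl replicate 4. It rose by 1.27 (SE 0.19, adjusted p = 7.53e-05), and by 1.08 without that array. The cathepsin S clones *ctssb1* (0.78, SE 0.21, adjusted p = 0.0383) and *ctss* (0.68, SE 0.17, adjusted p = 0.0212), cysteine proteases of lysosomes, also rose. Without Ctrl replicate 4, their adjusted p-values were 0.0680 and 0.0552. Of 36 alternative settings, the call of *ctssb1* was lost under 14 and that of *ctss* under 6. With the stage label as a covariate, the adjusted p was 0.171 for *ctssb1* and 0.0165 for *ctss*.

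Secreted hormones, peptides and growth factors held 5 risers among 11 members and no fall, with a median of 0.60. *sl* encodes somatolactin, a fish hormone of the growth hormone and prolactin family. Its values were 8.38, 8.64 and 8.96 in Ctrl and 9.66, 9.90 and 10.09 in Fsh+Tri (lowest, median and highest), with no overlap. It rose by 1.22 (SE 0.12, adjusted p = 9.03e-08). *tac1*, the precursor of substance P and related tachykinins, had 5.40, 5.73 and 6.41 in Ctrl against 6.72, 7.05 and 7.15, again without overlap, and rose by 1.17 (SE 0.16, adjusted p = 1.10e-05). *mdka*, the heparin-binding growth factor midkine, rose by 1.13 (SE 0.20, adjusted p = 0.000821). *aplp1*, a relative of the amyloid precursor protein, and *angptl7*, an angiopoietin-like secreted protein, rose by 0.60 (SE 0.16) and 0.54 (SE 0.12, adjusted p = 0.0106). The call of *aplp1* was lost under 23 of 36 alternative settings, and that of *angptl7* with the stage label as a covariate (adjusted p = 0.116). Of the hormones made by Sertoli cells, *inha*, the alpha subunit of inhibin, differed by 0.85 (95% interval 0.29 to 1.40, adjusted p = 0.113), or 0.46 without Ctrl replicate 4, and *amh*, anti-Müllerian hormone, by 0.08 (95% interval -0.35 to 0.50, adjusted p = 0.923), or -0.16 without that array.

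Of 10 transcription factors, 1 rose. It was *cebpb*, a leucine zipper factor of metabolic and inflammatory genes (0.86, SE 0.22, adjusted p = 0.0344). Its call was lost without any 1 of Ctrl replicates 1 and 4 and Fsh+Tri replicates 1, 3, 5 and 6, with a difference of 0.64 without Ctrl replicate 4. The adjusted p of *cebpb* was 0.180 with the stage label as a covariate. *purg* and *zfp658* had the lowest differences of the list, -0.57 and -0.54, with adjusted p-values of 0.0969 and 0.110. The AP-1 factor *fosl2* differed by 0.49 (adjusted p = 0.0855). Outside the lists, *rbm47*, an RNA-binding protein, rose on its clone 1 (0.76, SE 0.20, adjusted p = 0.0331, or 0.0800 without Ctrl replicate 4) and differed by 0.73 on its clone 2 (adjusted p = 0.244). For clone 1 the adjusted p was 0.0893 with the stage label as a covariate. Also called higher were *rhobtb3* (0.86, SE 0.14, adjusted p = 0.000270), *stk3* (0.74, SE 0.13, adjusted p = 0.000821) and *toxin-1* (0.58, SE 0.16, adjusted p = 0.0418), whose call was lost under 17 of 35 alternative settings. A second annotation in the study's material assigns the clone of *rhobtb3* to GLRX and that of *stk3* to YWHAQB, so that no role is given for either.

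Genes of the cell cycle and replication held 2 falls and no rise among 5 members, with a median of -0.48. *ing4*, a chromatin reader of the inhibitor of growth family, had values of 7.41, 7.79 and 8.69 in Ctrl and 6.64, 6.85 and 7.20 in Fsh+Tri (lowest, median and highest). All treated arrays lay below all Ctrl arrays, and it fell by 0.95 (SE 0.21, adjusted p = 0.0106). Its highest Ctrl value is that of Ctrl replicate 4, and the difference was -0.78 without that array (adjusted p = 0.0287). *ccne1*, the cyclin of entry into DNA synthesis, had 9.73, 10.61 and 11.10 in Ctrl and 9.65, 9.86 and 10.02 in Fsh+Tri. The lowest Ctrl value lay within the range of the combination. *ccne1* fell by 0.75 (SE 0.18, adjusted p = 0.0209), and by 0.92 without Ctrl replicate 4. Its call was lost under 8 of 36 alternative settings, among them leaving out Ctrl replicates 3 or 6 or Fsh+Tri replicates 2 or 6. It was also lost with the stage label as a covariate (adjusted p = 0.0855) and with the Ctrl and Fsh+Tri arrays fitted alone. The centromere histone *cenpa* differed by -0.48 (adjusted p = 0.183) and the replication helicase subunit *mcm7* by -0.18 (adjusted p = 0.675). The remaining member, the cyclin *ccng1*, pointed up, by 0.58 (adjusted p = 0.0551). Other falls were those of *des*, desmin, an intermediate filament of muscle cells (-0.58, SE 0.15, adjusted p = 0.0344), the membrane protein *tmem106a* (-0.66, SE 0.16, adjusted p = 0.0222) and *pol* (-0.67, SE 0.17, adjusted p = 0.0232), for whose clone the annotation gives several unrelated genes. The call of *des* was lost under 12 of 35 alternative settings, and those of *tmem106a* and *pol* without Ctrl replicate 4, each at an adjusted p over 0.05 (0.0532 and 0.0559). With the stage label as a covariate, the adjusted p was 0.173 for *des*, 0.0532 for *tmem106a* and 0.0211 for *pol*.

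Other lists held few calls. Of 11 clones of the cytoskeleton, keratins and junctions, *des* alone was called, and the median difference was 0.04. The 4 clones of antigen presentation had a median of -0.09 and none was called. The 2 proteasome subunits, *psmd1* (0.30) and *psma4* (-0.23), were not called either. None of the 4 Sertoli cell genes was called, with a median of 0.18. Of 4 genes of blood and immune cells, *rhag* and *ctss* rose and the class II genes *onmy-dab* (-0.25) and MHC class II alpha chain (-0.09) were not called. The mean log2 value over these 4 genes ran from 6.55 to 7.57 in Ctrl and from 7.53 to 7.76 in Fsh+Tri, with medians of 7.45 and 7.60. The lowest Ctrl value, 6.55, is that of Ctrl replicate 4. The part of blood or immune cells in the rises of *rhag* and *ctss* was not tested.

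The clones of the largest rises carry no name. Clone tcbk0027.h.05 rose 4.60-fold (95% interval 1.88 to 2.52 on the log2 scale, adjusted p = 3.87e-11) and clone tcbk0045.m.11 rose 4.46-fold (1.79 to 2.53, adjusted p = 1.99e-09). Values of tcbk0027.h.05 were 8.85, 9.27 and 9.58 in Ctrl and 11.10, 11.35 and 11.73 in Fsh+Tri, with 10.48, 10.73 and 11.18 in Tri and 8.80, 9.14 and 9.36 in Fsh (lowest, median and highest). The Tri and Fsh+Tri arrays all lay above the Ctrl and Fsh arrays, and only the lowest Fsh+Tri array lay within the Tri range. The difference of tcbk0027.h.05 from Ctrl was 1.60 with trilostane alone (adjusted p = 3.73e-08) and -0.10 with Fsh alone. In tcbk0045.m.11 these were 1.89 (adjusted p = 3.73e-08) and -0.08. Of the 19 clones that rose at least 2-fold, 7 have a name. In the other direction, the unnamed clones tcba0019.j.11 and tcbk0034.n.07 fell by 0.82 (SE 0.19, adjusted p = 0.0154) and 0.81 (SE 0.16, adjusted p = 0.00322).

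The single treatments were then set beside the combination. Fsh alone raised 82 clones (1.80%) and lowered 17 (0.372%), 2.17% in all. Trilostane alone raised 23 (0.504%) and lowered 3 (0.0657%), 0.570% in all. These comparisons share the Ctrl arrays with the combination, so that a high or low Ctrl value moves all of them the same way, and single-treatment values are given side by side without a test of their likeness. Of the 88 called clones, 66 had a Fsh+Tri mean past the means of both single treatments in the direction of the change. The 88 were chosen for a large difference of Fsh+Tri from Ctrl, which by itself favours such a position. The share over all clones tested was not counted, so that the 66 do not show that the combination exceeds each single treatment.

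A clone was counted as adding up when it was called with the combination and its difference was larger than with either single treatment. Both single treatments also had to point the same way as the combination, by any amount and without a p-value. This held for 53 clones (1.16% of those tested), 41 of them higher and 12 lower. A call with the combination is part of the rule, so that this share cannot exceed the 1.93% called. In 17 of them (0.372%) the combination also lay beyond each single treatment with an unadjusted p no higher than 0.05. Of the 53, 16 have a name, and of the 17, *pgd*, *tfpi2*, *hgfa*, *rhag*, *stk3* and *tmem106a* do. The 53 include *ctss*, where trilostane alone gave 0.04 (adjusted p = 0.960). The rule thus does not show that each substance acted. Without Fsh+Tri replicate 6 the counts were 29 and 10, and without Ctrl replicate 4, 33 and 12 of the clones stayed.

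In *pgd* both single treatments pointed up, and trilostane alone passed the test. Values with Fsh alone were 9.78, 10.00 and 10.39 and with trilostane alone 10.04, 10.25 and 11.06 (lowest, median and highest). Both groups reached into neighbouring ones, Fsh into the Ctrl range and Tri into that of the combination. Fsh alone gave 0.52 (adjusted p = 0.139) and trilostane alone 0.89 (adjusted p = 0.00964), which sum to 1.42, against 1.55 with both. The departure from the sum was 0.13 (95% interval -0.40 to 0.66). The combination exceeded Fsh alone by 1.02 (adjusted p = 0.000704) and trilostane alone by 0.65 (adjusted p = 0.123, unadjusted p = 0.00121). In *tfpi2* and *hgfa* the difference with trilostane alone was smaller than with Fsh alone. With Fsh alone *tfpi2* was at 7.03, 7.31 and 7.41 and with trilostane alone at 6.06, 6.48 and 7.002. Its differences were 0.92 and 0.12, with a departure of 0.29 (95% interval -0.13 to 0.70). For *hgfa* they were 0.63 and 0.27, with a departure of 0.37 (95% interval -0.18 to 0.92). The combination exceeded Fsh alone by 0.40 in *tfpi2* (adjusted p = 0.239) and by 0.64 in *hgfa* (adjusted p = 0.106). Neither of these passed the adjusted threshold.

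In *stk3* and *tmem106a* the single treatments had moved little. For *rhag*, Fsh alone gave 0.22 (adjusted p = 0.491) and trilostane alone 0.37 (adjusted p = 0.402). *rhag* stood at 6.05, 6.61 and 6.75 with Fsh alone and 6.51, 6.72 and 6.83 with trilostane alone, so that every array with both lay above every other cultured array. It exceeded Fsh alone by 0.84 (adjusted p = 0.000705) and trilostane alone by 0.68 (adjusted p = 0.0296). The sum of the single treatments was 0.60 against 1.06 observed, a departure of 0.46 (95% interval 0.03 to 0.90, adjusted p = 0.603). *stk3* had Ctrl values of 10.00, 10.33 and 10.52, with 10.18, 10.35 and 10.67 for Fsh alone, 10.26, 10.33 and 10.88 for trilostane alone and 10.73, 11.03 and 11.24 for both. It was above Fsh alone by 0.66 (adjusted p = 0.00283) and above trilostane alone by 0.60 (adjusted p = 0.0296), with a departure from the sum of 0.52 (95% interval 0.14 to 0.90, adjusted p = 0.514). *tmem106a* fell by 0.66 with both and differed by -0.19 and -0.04 with Fsh and trilostane alone. With both, it differed from Fsh alone by -0.46 (adjusted p = 0.215) and from trilostane alone by -0.62 (adjusted p = 0.0763). *stk3* was singled out after its values had been seen.

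**Figure D2:**
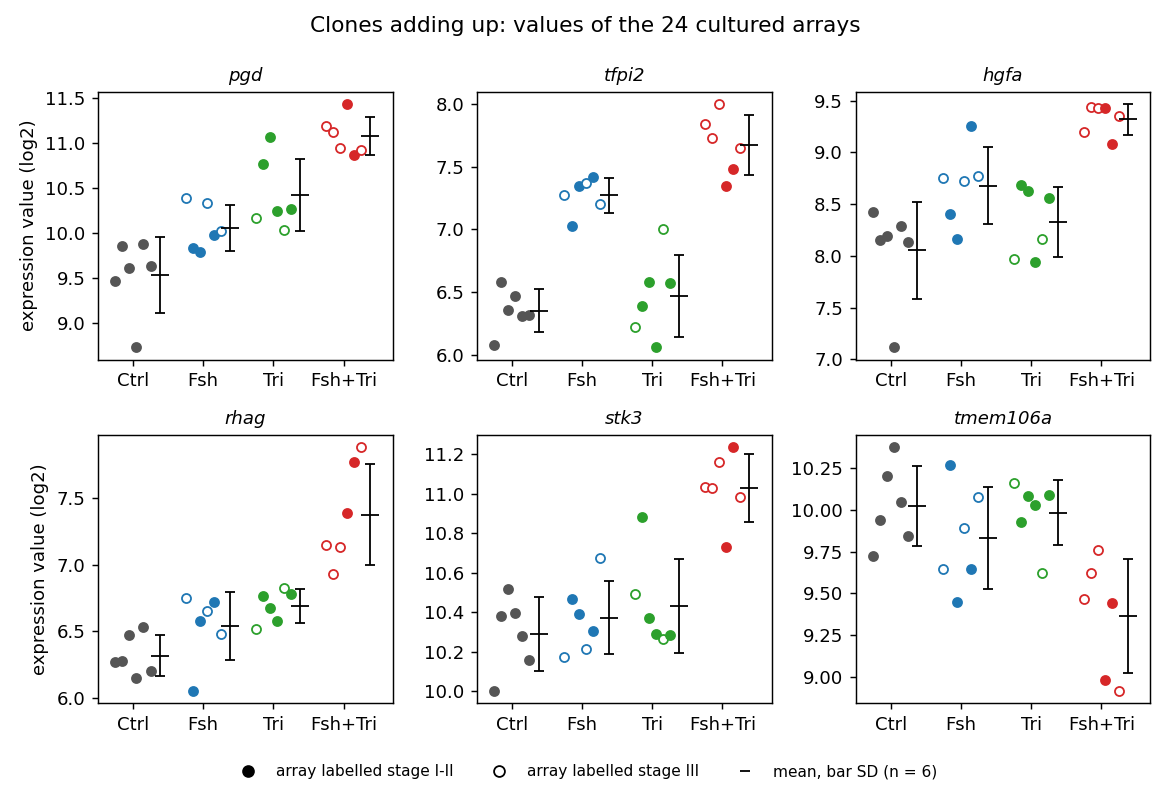
Log2 expression values of the 6 named clones that met the stricter rule of adding up, for each of the 24 cultured arrays (filled points, stage I-II labels; open points, stage III labels) with the mean and SD of each group (n = 6). In *pgd*, *tfpi2*, *hgfa*, *rhag* and *stk3* the 6 Fsh+Tri arrays lie above the 6 Ctrl arrays.

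The zinc exporter *slc30a1* rose with the combination although neither single treatment moved it far. Its values were 8.24, 8.68 and 9.02 in Ctrl, 8.47, 8.70 and 9.22 with Fsh, 8.19, 8.55 and 8.91 with trilostane and 8.96, 9.36 and 9.47 with both. The lowest array of the combination lay within the Ctrl range. Differences from Ctrl were 0.07 and -0.16 for Fsh and trilostane alone and 0.63 for both, and the combination lay above trilostane alone by 0.79 (adjusted p = 0.00969) and above Fsh alone by 0.56 (adjusted p = 0.0520). As the single treatments pointed in opposite directions, *slc30a1* does not count as adding up. The departure from the sum was 0.71 (95% interval 0.28 to 1.14, adjusted p = 0.496).

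For several called clones the combination stood at the level of a single treatment. Somatolactin *sl* had 9.69, 9.97 and 10.08 with trilostane alone, close to the range with both, and 7.86, 8.18 and 8.29 with Fsh alone. Trilostane alone raised it by 1.23 (adjusted p = 7.42e-08), whereas Fsh alone lowered it by 0.55 (adjusted p = 0.0112). The combination differed from trilostane alone by -0.01 (95% interval -0.26 to 0.24). At the level of Fsh alone were *tac1*, whose combination differed from Fsh alone by -0.06 (95% interval -0.38 to 0.26), *fasn* clone 1 with -0.12 (-0.45 to 0.22), *cbs* with -0.01 (-0.37 to 0.36) and *rhobtb3* with 0.04 (-0.25 to 0.33). *rhobtb3* also counts among the clones adding up, since its difference with both (0.86) was slightly larger than with Fsh alone (0.83). In *cbs*, trilostane alone gave 0.54 (adjusted p = 0.244). The departure of *cbs* from the sum was -0.55 (95% interval -1.06 to -0.03, adjusted p = 0.609). *tac1* had 6.69, 6.97 and 7.49 with Fsh alone and 5.80, 6.00 and 6.13 with trilostane alone. Its difference between the combination and trilostane alone was 0.99 (adjusted p = 0.000770).

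**Figure D3:**
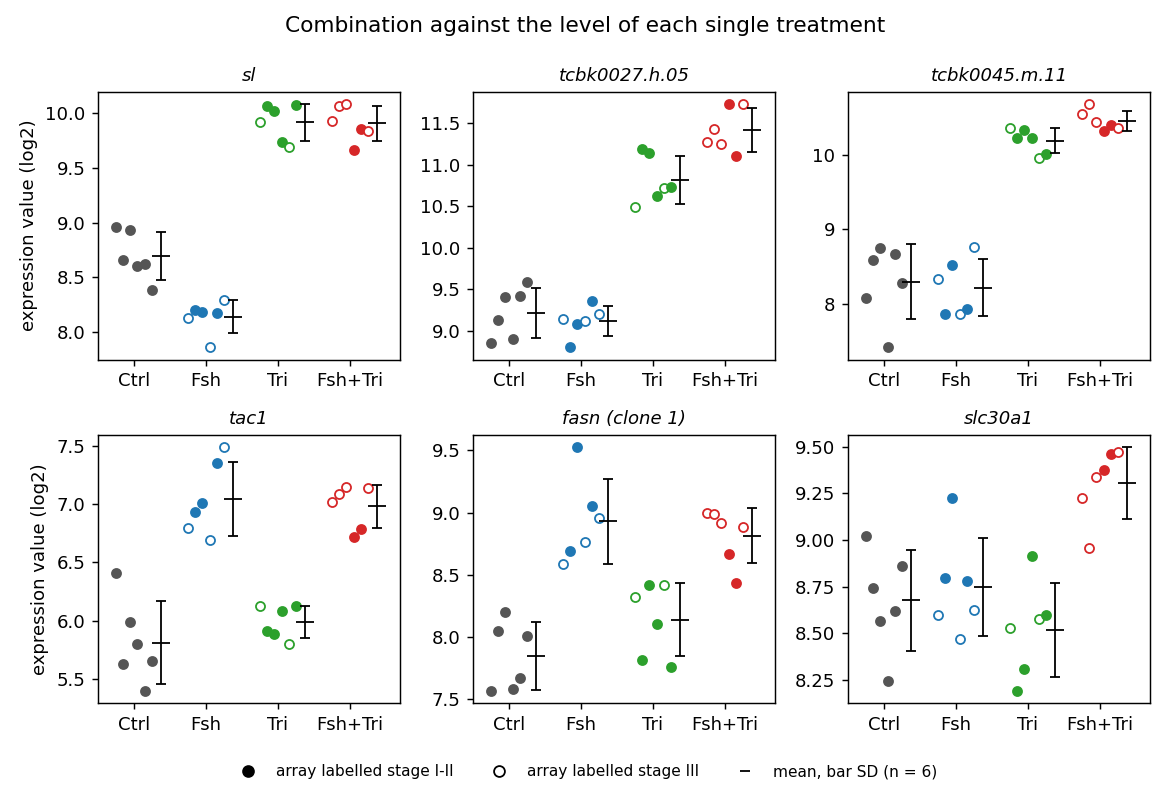
Log2 expression values on the 24 cultured arrays (filled points, stage I-II labels; open points, stage III labels) with the mean and SD of each group (n = 6). The Fsh+Tri arrays of *sl*, tcbk0027.h.05 and tcbk0045.m.11 stand with or above the Tri arrays, those of *tac1* and *fasn* clone 1 with the Fsh arrays, and the Fsh+Tri mean of *slc30a1* lies above the other 3 means.

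A clone was counted as cancelling when Fsh and trilostane alone moved it in opposite directions, each with an unadjusted p no higher than 0.05, and the combination moved it less than either. This held for 12 clones (0.263%), of which 10 have a name. In 6 of these Fsh pointed up and trilostane down, and in 4 the reverse. Over all clones tested, 727 had an unadjusted p under 0.05 with Fsh alone and 425 with trilostane alone. How many clones would meet the rule by chance was not worked out. Of the 10, only *slc26a4* had an adjusted p under 0.05 with each single treatment. The rule thus does not show that both substances moved a clone. In 8 of the 12 (0.175% of the clones tested) the 95% interval of the combination also lay within a 1.5-fold change in either direction. That alone was true of 71.1% of all clones tested. Without Ctrl replicate 4 the counts were 19 and 14, with 8 and 4 of the clones shared.

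A matrix gene and a junction gene were among those that pointed up with Fsh and down with trilostane. *mmp19*, a matrix metalloproteinase, had 6.72, 7.45 and 7.91 in Ctrl, 8.55, 8.90 and 9.08 with Fsh, 6.36, 6.57 and 6.92 with trilostane and 7.22, 7.55 and 8.15 with both (lowest, median and highest). The combination overlapped the Ctrl values and lay below all Fsh values and above all Tri values. Differences from Ctrl were 1.54 (adjusted p = 1.36e-06), -0.71 (adjusted p = 0.0524) and 0.27 (95% interval -0.09 to 0.63), in the order Fsh, trilostane and both. *cldn11*, which seals the junctions between Sertoli cells, had 8.52, 9.50 and 9.77 in Ctrl, 9.73, 10.02 and 10.15 with Fsh, 8.31, 8.79 and 9.20 with trilostane and 9.06, 9.28 and 9.58 with both. Its differences were 0.65 (adjusted p = 0.0326), -0.52 (adjusted p = 0.217) and -0.04 (95% interval -0.38 to 0.31).

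The transcription factor *cebpd1* followed the same order, with 0.83 for Fsh (adjusted p = 0.000822), -0.36 for trilostane (adjusted p = 0.402) and -0.12 for both (95% interval -0.42 to 0.18). Without Ctrl replicate 4 the difference with both was -0.23 for *cebpd1*, -0.20 for *cldn11* and 0.39 for *mmp19*, and on the arrays labelled stage I-II it was 0.06 for *mmp19*. Apart from *slc26a4*, *cebpd1* and *mmp19* lay furthest from the sum among the named clones of this direction, with departures of -0.59 (95% interval -1.01 to -0.17) and -0.55 (-1.06 to -0.05), at adjusted p-values of 0.514 and 0.594. The enzyme *gpd1*, a link between glycolysis and glycerolipid synthesis, differed by 0.33 (adjusted p = 0.224), -0.28 (adjusted p = 0.529) and 0.17. Its highest Ctrl value, 7.44 on Ctrl replicate 5, stood apart from the next, 7.02. Such a value favours the rule in *gpd1*, since it lowers the differences with trilostane and with both. Keratin *krt12* on its clone 1 differed by 0.56 (adjusted p = 0.104), -0.59 (adjusted p = 0.187) and 0.30. On its clone 2 *krt12* differed by 0.84, -0.52 and 0.62 (adjusted p with both, 0.0689), which did not count as cancelling since the combination exceeded the size of the trilostane difference.

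The MHC class II alpha chain, *onmy-uba* clone 1 and *mcm7* had the opposite signs. The MHC class II alpha chain, which presents peptides on immune cells, had 5.11, 6.79 and 7.27 in Ctrl, 5.32, 5.45 and 5.73 with Fsh, 6.90, 7.09 and 7.35 with trilostane and 5.89, 6.39 and 6.67 with both. The lowest Ctrl value, from Ctrl replicate 4, lay below all other cultured arrays, and the combination differed from Ctrl by -0.36 without it. Differences were -0.96 (adjusted p = 0.0185), 0.66 (adjusted p = 0.277) and -0.09 (95% interval -0.56 to 0.38). The class I gene *onmy-uba* on its clone 1 differed by -0.63, 0.47 and -0.06 (95% interval -0.47 to 0.36; -0.27 without Ctrl replicate 4 and 0.05 on the arrays labelled stage I-II), and its clone 2 by -0.78, 0.19 and -0.10. For *mcm7* the differences were -0.37, 0.32 and -0.18. On the arrays labelled stage I-II the combination differed by 0.12, so that the sign turned, at an adjusted p of 0.998.

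**Figure D4:**
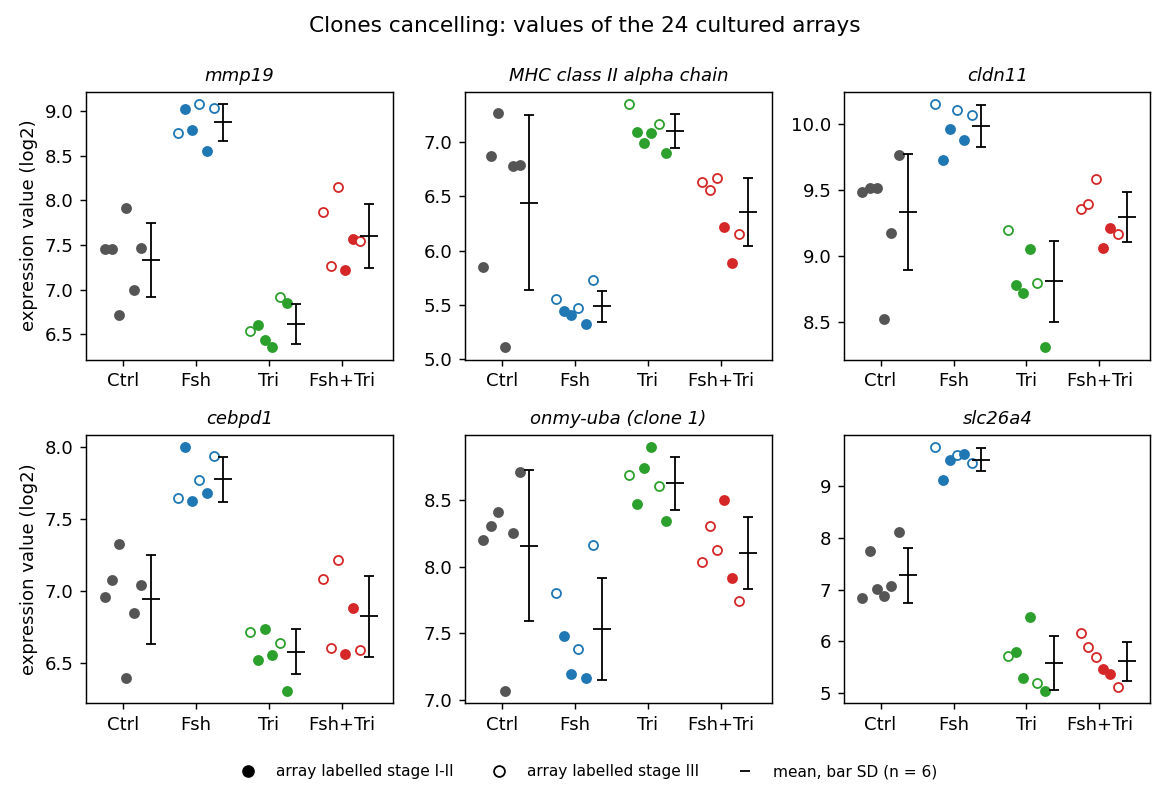
Log2 expression values of 6 of the 10 named clones counted as cancelling, for each of the 24 cultured arrays (filled points, stage I-II labels; open points, stage III labels), with the mean and SD of each group (n = 6). In *mmp19*, *cldn11* and *cebpd1* the Fsh+Tri mean lies between those of Fsh and Tri, as it does in MHC class II alpha chain and *onmy-uba* clone 1, whereas in *slc26a4* it lies at the level of Tri.

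*slc26a4* met the rule of cancelling only by its letter. Its values were 9.11, 9.55 and 9.75 with Fsh alone and 5.05, 5.51 and 6.47 with trilostane alone, against 5.12, 5.58 and 6.16 with both. Fsh alone raised it by 2.23 (adjusted p = 1.15e-07), trilostane alone lowered it by 1.69 (adjusted p = 1.62e-05) and the combination lowered it by 1.66. The combination differed from trilostane alone by 0.03 (95% interval -0.43 to 0.48) and from Fsh alone by -3.89 (adjusted p = 8.32e-14). The means with trilostane alone (5.59) and with both (5.62) lay below the 6.42 of the level filter. Whether low signal limits their likeness or the departure from the sum was not tested.

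A test of the combination against the sum of the single treatments passed for 3 clones, all below the sum (0.0657% of those tested), with 359 at an unadjusted p under 0.05. Just outside the threshold lay *psma4*, above the sum by 1.05 (95% interval 0.59 to 1.52), and *dmd*, at -1.03, each at an adjusted p of 0.066. *psma4* differed by -0.71 with Fsh alone (adjusted p = 0.0123), -0.58 with trilostane alone (adjusted p = 0.127) and -0.23 with both. For *slc26a4* the departure was -2.20 (95% interval -2.85 to -1.56, adjusted p = 0.000226). The vasotocin transcript *vt1*, a fish relative of vasopressin, had 5.89, 6.04 and 6.25 in Ctrl, 8.72, 9.09 and 9.50 with Fsh, 5.58, 5.96 and 6.04 with trilostane and 6.21, 6.31 and 6.91 with both. The Fsh arrays stood far above the rest, and the combination was only slightly above Ctrl (0.43, adjusted p = 0.164). The departure was -2.47 (95% interval -2.91 to -2.04, adjusted p = 6.22e-09). For the 14 kDa apolipoprotein, a lipid carrier, the departure was -0.99 (95% interval -1.38 to -0.60, adjusted p = 0.0196), with values of 6.41, 6.85 and 7.05 in Ctrl and 6.68, 6.94 and 7.03 with both. Leaving out Fsh replicate 5 or 6 or Fsh+Tri replicate 4 or 5 ended the call of this last departure. On the arrays labelled stage I-II, the departure passed for *vt1* alone, with an adjusted p of 0.104 for *slc26a4*. The 95% interval of the departure held 0 for 75 of the 88 called clones and for 50 of the 53 that added up, a description of clones chosen on the same values. Over all 4565 clones tested it held 0 for all but the 359 above, so that these counts do not show adding up.

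**Figure D5:**
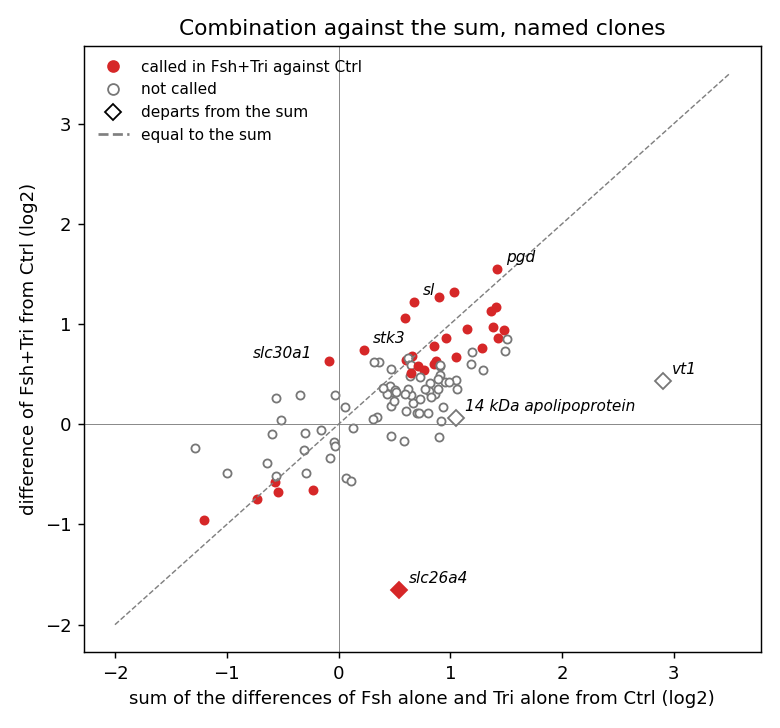
Difference of Fsh+Tri from Ctrl against the sum of the differences of Fsh alone and Tri alone, in log2 units, for the named clones, with the dashed line where both are equal. Diamonds mark *vt1*, *slc26a4* and 14 kDa apolipoprotein, the 3 clones that departed from the sum, all below the line.

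Against Fsh alone, 45 clones were higher with the combination (0.986%) and 21 lower (0.460%), 1.45% in all. Against trilostane alone, 15 were higher (0.329%) and 1 lower (0.0219%), 0.350% in all. Names were available for 7 of the 45, 14 of the 21 and all 16 clones of the second comparison. The study picked the named clones partly on that second comparison, on these same arrays, which favours names among its calls. Above Fsh alone were *sl* (1.77, adjusted p = 7.12e-12), *pgd*, *rhag*, *stk3*, MHC class II alpha chain (0.87, adjusted p = 0.0489), *inhba*, a subunit of activin and inhibin (0.75, adjusted p = 0.0385), and *onmy-uba* clone 2 (0.68, adjusted p = 0.0357). Of the named clones below Fsh alone, *slc26a4* and *vt1* were followed by *mmp19* (-1.27, adjusted p = 1.83e-05) and *dmd*, dystrophin (-1.07, adjusted p = 4.09e-05). With both substances *dmd* stood at its Ctrl level within an interval of -0.44 to 0.19. Above trilostane alone the named clones led with *tfpi2* (1.20, adjusted p = 1.06e-05), *krt12* clone 2 (1.14, adjusted p = 0.000770) and *hgfa* (1.00, adjusted p = 0.00969), and *des* was below it (-0.71, adjusted p = 0.0248). The count against trilostane alone was 56 without Ctrl replicate 4, and 0 on the arrays labelled stage I-II.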

How the data were processed

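Explants of rainbow trout testis were profiled on nylon cDNA arrays after 96 h of culture in 4 treatments of 6 arrays each, grouped by the treatment labels. The authors read spot intensities from phosphor images, scaled each to the hybridization signal of an oligonucleotide against the vector and to its median, took log2 and normalized by quantiles. The deposited log2 values were the input here. The deposited files of spot intensities gave only the brightness of the arrays and the file layout. Median brightness ran from 52 to 113 over the cultured arrays. On 4 of these, none of Fsh+Tri, the file opened with a creator line, here called the newer layout.

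Rows of water and a vector control (192) were left out. A clone was tested when 80% of the 24 arrays held a value (8244 clones) and its mean in at least 1 treatment reached the median of the experiment (4565 clones). These filters stand in for those of the methods. limma 3.58.1 (lmFit and eBayes, R 4.3.3) was used to fit 4 treatment means. Benjamini-Hochberg adjusted p-values under 0.05 counted as calls. Precision is limited by the number of arrays. The fit and the rules were run on simulated data with known changes, where only the calls and the size of the difference were checked. Those data had independent noise, with no outlying array and no stage imbalance. Figures were drawn with matplotlib 3.10.9.

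Named clones are the 12 largest called changes in each direction, up to 10 adding up and up to 10 cancelling, those departing from the sum, up to 4 of each of 15 gene lists, *rps15* and up to 2 unnamed clones in each direction. Other called clones were named after their values were seen. The comparison, the rules and the lists were chosen with earlier results of these data known. Most list members are named clones that the study picked on these arrays. Alternatives covered filters, moderation, array weights, stage, file layout, centring, a replicate block and leaving out each array. Hormone and qPCR measurements were not analysed here. A few named clones are not reported here.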

Additional observations from a re-analysis of the deposited data

Results flagged for a closer look

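Among 118 groups of 6 values of the named clones that were examined for a value far from the others, 13 held one, where chance gives about 5% of groups. Ctrl replicate 4 supplied 8 of the 13. It was low in *pgd* (8.73), *hgfa* (7.12), *onmy-uba* clone 1 (7.07), *fdps* (7.96), *cth* (6.31), *lrrc8* clone 2 (4.85) and *inha* (7.98), where the nearest Ctrl array stood at 10.03, and high in *krt12* clone 2 (9.68). Other single Ctrl values were *gpd1* on Ctrl replicate 5 (7.44, high) and 14 kDa apolipoprotein on Ctrl replicate 3 (6.41, low). In the Fsh+Tri group, replicate 3 was low in *psma4* (9.03) and high in *dmrt1* (7.49), and replicate 4 was high in *onmy-dab* (9.44).

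The response to Fsh differed between explants with and without trilostane, by the interaction term in limma, for *vt1* (-2.47), *slc26a4* (-2.20) and 14 kDa apolipoprotein (-0.99).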

How the results depend on the processing

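No named clone whose call was examined changed sign past the threshold under any alternative. Counts that moved by over 1.5 times are given here, and their cause was not tested unless fewer arrays were fitted. With array weights, clones lower than Ctrl numbered 45, the calls against Tri 84, the clones adding up 87 and 27 by the stricter rule, and those cancelling by the stricter rule 14. With the Ctrl and Fsh+Tri arrays fitted alone, 48 were higher and 6 lower than Ctrl. With the stage label as a covariate there were 9 calls against Tri and 5 clones cancelling by the stricter rule. On the arrays labelled stage I-II alone, 8 were higher and 1 lower than Ctrl, 1 departed from the sum, 13 were called against Fsh, 0 against Tri, 26 for Fsh and 14 for Tri against Ctrl, 3 added up (1 by the stricter rule) and 7 cancelled (1). Without the arrays of the newer file layout there were 8 calls against Tri, 12 for Tri against Ctrl and 5 clones cancelling by the stricter rule.

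Leaving out 1 array at a time gave 54 to 85 clones higher and 5 to 27 lower than Ctrl, 2 to 5 departing from the sum, 52 to 88 called against Fsh, 8 to 56 against Tri, 68 to 124 for Fsh and 18 to 31 for Tri against Ctrl, 29 to 57 adding up (10 to 23) and 8 to 19 cancelling (3 to 14). The highest counts of clones lower than Ctrl, called against Tri and cancelling were those without Ctrl replicate 4. Without Ctrl replicate 3, 5 clones departed from the sum and 5 cancelled by the stricter rule. That stricter count was 3 without Tri replicate 4 and 5 without Tri replicate 5. Clones lower than Ctrl numbered 8 without Fsh+Tri replicate 1 and 9 without Fsh+Tri replicate 4. Against Tri, leaving out any 1 of Tri replicates 1 to 4 or of Fsh+Tri replicates 1, 2, 3 and 6 gave 8 to 10.

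Arrays with the same replicate number did not deviate together (36 pairs, correlation -0.35 to 0.21, median -0.06), and 1 of 24 arrays was closest to its own number. With a replicate block, 63 clones were higher and 10 lower than Ctrl, of which 72 were among the 88, and 10 were called against Tri. The alternative that normalized the spot intensities anew was not run, because the spots are given by plate position and were not paired with clones here.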
